A study of Gallus gallus with 9 samples.

Results

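The comparison of chick dorsal mesentery at the end of small intestinal looping, embryonic day 16 (E16), with its start, embryonic day 8 (E8), rested on 6 of the 9 RNA-seq libraries of the series, 3 per stage. The remaining 3 libraries, from embryonic day 12 (E12), entered no test. All embryos were wild-type White Leghorn chickens, with no treatment. Each library held poly(A)-selected RNA from the pooled mesenteries of 3 embryos, from which the gut tube and the superior mesenteric artery had been dissected away. Of 24356 genes in the deposited count table, 15263 were counted well enough in these 6 libraries to be tested.

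The dorsal mesentery is the double-layered membrane that suspends the gut tube from the body wall. It consists of mesenchyme covered on both faces by mesothelium and carries the vessels and nerves of the intestine. The gut tube elongates faster than the mesentery to which it is attached, and the resulting compression buckles the tube into loops whose size depends on the stiffness, thickness and growth of both tissues. The comparison asks which transcripts differ between the stage at which loops begin to form and the stage at which they are complete. In whole tissue of this kind, a change in the share of a cell type and a change in RNA per cell cannot be told apart.

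The deposited table lists Ensembl gene IDs without symbols. None of them occurs in the identifier columns of the RefSeq gene table used here (25635 chicken genes, assembly GRCg7b), so 0 IDs were matched. Genes are therefore given by ID, without name, position, sequence or function, and the tissue label was not checked against marker genes. Elastic fibre, collagen, contractile, cell cycle and cell type gene lists were not analysed here for the same reason.

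Reads counted in genes ranged from 22.96 M to 29.88 M (mega) per library. Reads that fell outside the annotation were 20.04% ± 0.32 of the total at E8 and 19.3% ± 0.95 at E16 (SD, n = 3 each), with overlapping values. E8 replicate 2 stood apart from the other E8 libraries. In it, 364 tested genes (2.38%) had at least 1 CPM (count per mega of gene counts) and at least 2-fold the CPM of both other E8 libraries, against 25 such genes in E8 replicate 1, 9 in replicate 3 and 15 to 81 in the E16 libraries. Nothing in the labels says that the libraries of a stage were dissected on separate days. The p-values thus measure the spread between pools, and any handling difference shared by a stage cannot be told apart from stage.

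The spread of reads over genes differed far more between the stages than within them. The distance between 2 libraries was taken as the percentage of gene counts that would have to move to other genes to turn one profile into the other. It was 21.1% to 23.5% over the 9 pairs of an E8 and an E16 library. It was 3.24% to 6.70% over the 3 pairs within E8 and 5.97% to 8.91% over the 3 pairs within E16. The 2 closest libraries were E8 replicates 1 and 3, and the widest pair within a stage was E16 replicates 2 and 3. No pair was a duplicate deposit, since the chi-square statistic per degree of freedom was at least 7.78 in every pair.

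Most tested genes were called as different between the stages at the threshold used. With edgeR's quasi-likelihood test and a Benjamini-Hochberg adjusted p under 0.05, 8428 of 15263 genes (55.2%) were called. Of these, 4368 (28.6% of those tested) were higher and 4060 (26.6%) were lower at E16. The median log2 fold change was 0.95 among the genes called higher, -0.79 among those called lower and 0.00 over all tested genes. The median standard error was 0.15, and the smallest absolute log2 fold change called was 0.22. The values of the stages did not overlap for 9716 tested genes (63.7%), which included 8252 of the 8428 called (97.9%).

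**Figure D1:**
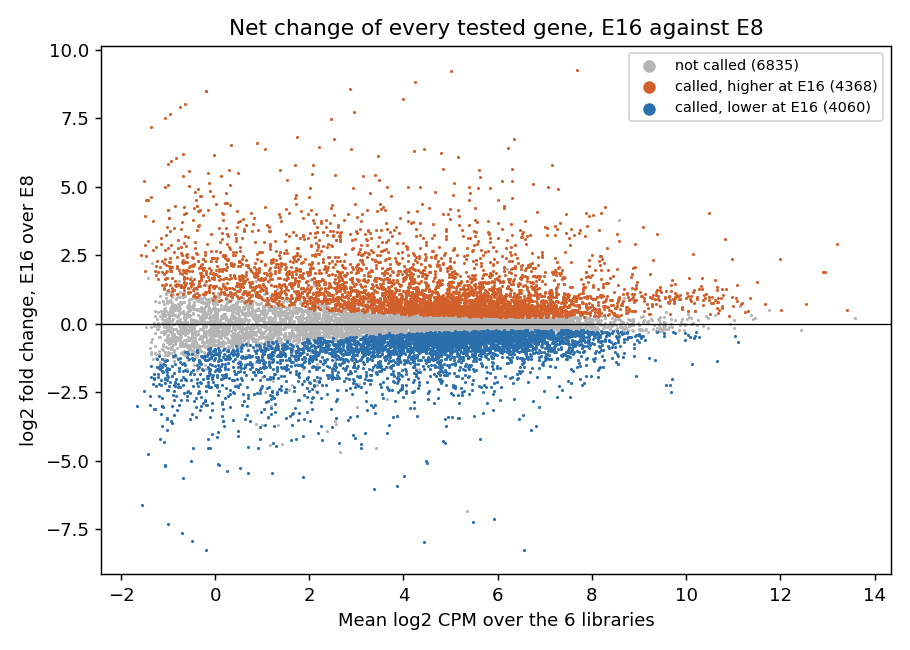
Log2 fold change of E16 over E8 against mean log2 CPM over the 6 libraries, 1 point per tested gene. Genes called higher (4368) and lower (4060) are coloured, and the 6835 genes that were not called lie mostly near 0, in a band that widens where counts are low. The 16 of them at or beyond an absolute value of 3 are 15 falls and 1 rise.

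Falls were somewhat more frequent among small changes and rises among large ones. At absolute log2 fold changes below 0.5, 823 called genes were higher and 917 lower at E16, which is 47.3% higher. From 0.5 to 1, 1474 were higher and 1681 lower (46.7% higher). From 1 to 2, 1292 were higher and 1031 lower (55.6% higher). From 3 to 4, 195 were higher and 90 lower (68.4%). At 4 and over, a 16-fold change, 150 were higher and 52 lower (74.3%). In all, 3533 genes (23.1% of those tested) were called with at least a 2-fold change, 2071 higher and 1462 lower. At least an 8-fold change was reached by 487 genes (3.19%), 345 higher and 142 lower.

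The balance between higher and lower genes depended on how the libraries were scaled. With trimmed mean of M values (TMM) scaling, 51.8% of the called genes were higher at E16. The share was 33.2% with total counts only, and the median over every tested gene moved to a log2 fold change of -0.24. At least 2-fold, the share of rises was 58.6% with TMM and 41.1% with total counts only. At least 8-fold, it was 70.8% and 60.9%, so rises outnumbered falls under both scalings in that class. Over all 17 alternatives the share of rises among changes of at least 8-fold lay between 60.9% and 79.1%. Higher and lower are thus meant against the typical gene.

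**Figure D2:**
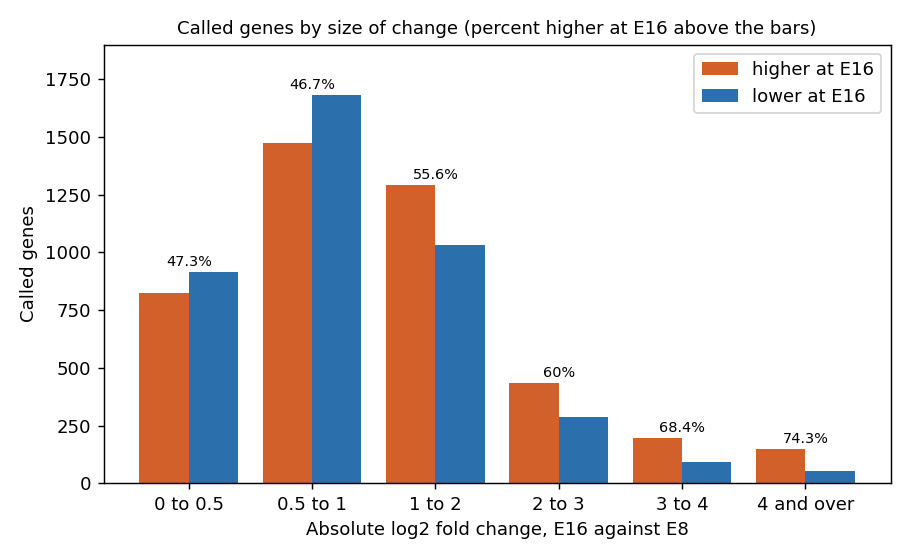
Number of called genes higher (orange) and lower (blue) at E16 in classes of absolute log2 fold change, with the percentage higher above each pair of bars. Under TMM scaling the percentage is 47.3% and 46.7% in the classes below 1 and increases from 55.6% to 74.3% in those above. With total counts only, 33.2% of all called genes were higher.

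Most called changes were small. Of the 8428 called genes, 4895 (58.1%) changed by less than 2-fold, and for 3101 the 95% interval of the log2 fold change lay entirely between -1 and 1. Among the 6835 genes that were not called, this interval also lay between -1 and 1 for 5277 (77.2%), so a 2-fold change was outside their interval. For the other 1558 the interval reached 2-fold or beyond, so a change of that size was neither called nor outside the interval. The mean log2 CPM of these genes had a median of 0.27, against 4.90 for the 5277.

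Calls were made at every level of counting, but what was called differed. Tested genes were divided into 5 equal groups by their mean log2 CPM over all 6 libraries. In the lowest group, 44.9% of 3052 genes were called, with a median standard error of 0.38 and a median absolute log2 fold change among called genes of 1.71. In the middle group, 56.3% were called, with a median standard error of 0.14 and a median absolute change of 0.75. In the highest group, 63.6% of 3053 genes were called, with a median standard error of 0.11 and a median absolute change of 0.64. Changes of at least 2-fold were called for 39.9% of the lowest group, 12.9% of the next to highest group and 16.4% of the highest. Poorly counted genes thus passed the test mainly when their change was large.

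Reads were concentrated in fewer genes at E16 than at E8. Each library's own 100 most counted genes took 18.7%, 18.4% and 18.0% of gene counts in E8 replicates 1, 2 and 3. In E16 replicates 1, 2 and 3 they took 25.1%, 24.7% and 26.0%. The stages did not overlap, and the means were 18.4% ± 0.38 and 25.3% ± 0.65 (SD, n = 3 each; two-sided exact permutation p = 0.1, the smallest that 3 against 3 allows, 0.2 when adjusted over the 8 measures of whole libraries). The 10 most counted genes of each library took 5.39% ± 0.18 at E8 and 8.83% ± 0.21 at E16, also without overlap and with the same exact p-values (p = 0.1, adjusted 0.2).

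The effective number of genes, the exponential of the Shannon entropy of the read shares, states how many equally counted genes would give the same evenness. It was 4604, 4800 and 4749 in the E8 libraries and 3582, 3649 and 3417 in the E16 libraries. The means were 4718 ± 102 and 3549 ± 119 (SD, n = 3 each; exact permutation p = 0.1, adjusted 0.2). Gene detection, at 1 count or more, differed much less. Expected at the depth of the smallest library, it was 18890 ± 28.1 at E8 and 18652 ± 189 at E16 (exact permutation p = 0.1, adjusted 0.2), without overlap. As counted, without equal depth, it was 19069 ± 120 and 18713 ± 262, and the stages overlapped (exact permutation p = 0.2, adjusted 0.267).

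**Figure D3:**
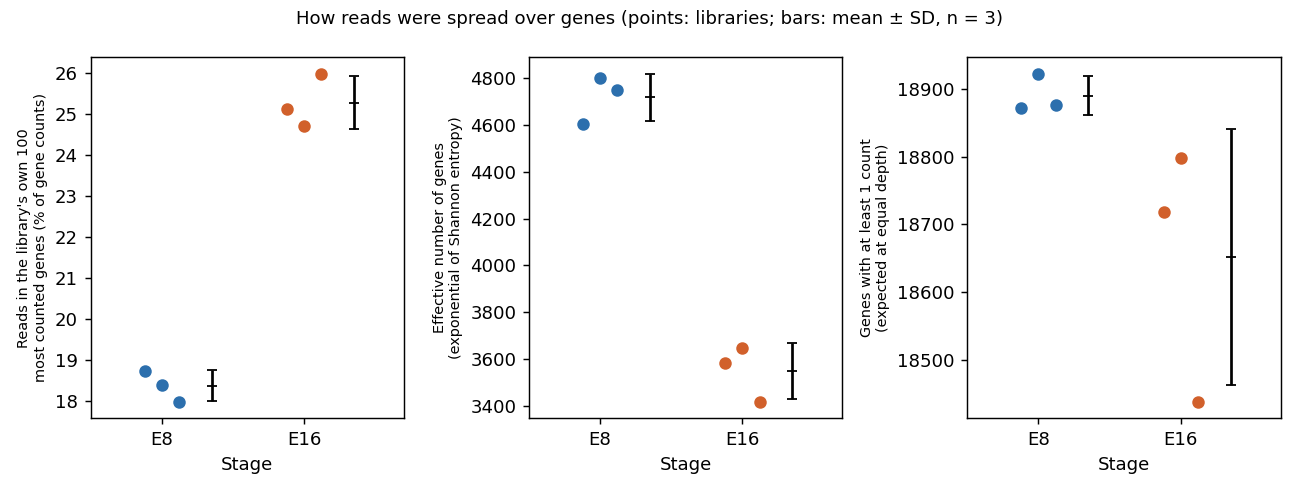
Share of gene counts in each library's own 100 most counted genes (percent), effective number of genes, and number of genes with at least 1 count expected at equal depth, with 1 point per library and mean ± SD (n = 3). The E16 libraries lie above all E8 libraries in the first panel (24.7% or more against 18.7% or less) and below them in both other panels. The vertical axes do not start at 0.

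The reads shifted towards the genes called higher. The 4368 genes called higher held 30.01% ± 0.38 of gene counts at E8 and 51.03% ± 0.68 at E16 (SD, n = 3 each). The 4060 genes called lower held 31.7% ± 0.68 at E8 and 16.2% ± 0.50 at E16. The 6835 genes that were not called went from 38.2% ± 0.30 to 32.7% ± 0.34. Under TMM scaling the median log2 fold change over all tested genes was 0.00, and that of the uncalled genes is not given here. The called and uncalled sets were chosen by the same values, so the shares are a description and were not tested.

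Among changes of at least 2-fold, the 2071 rises went from 7.93% ± 0.11 of gene counts to 22.2% ± 0.59. The 1462 falls went from 7.73% ± 0.29 to 2.27% ± 0.20. The genes that rose and those that fell by this much held like shares at E8. Their unlike shares at E16 follow from the choice of the genes by direction and size, so these values are a description as well.

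The most counted genes of the stages were partly the same. Of the 100 genes with the highest mean share at each stage, 67 were on both lists. Of the 100 at E16, 82 were called higher and 2 lower, against 28.6% and 26.6% of all tested genes, and 36 were called with at least a 2-fold change. Of the 100 at E8, 49 were called higher and 20 lower. Each list was chosen by the level at 1 of the stages compared, so its direction is not independent of the choice. The E16 list took 16.4% of gene counts at E8 and 25.2% at E16. CPM values are not divided by gene length and do not rank transcripts by number.

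Few genes were close to silent at 1 stage and well counted at the other. Below 0.5 CPM in every E8 library and at 5 CPM or more in every E16 library were 20 genes, and 4 showed the opposite pattern. When single libraries were left out, the first number ranged from 19 to 28. The second ranged from 3 to 9 and was highest without E16 replicate 2. Both sets were chosen by the values compared, so these numbers are a description. No counts at all were found at E8 for 7 tested genes, all called, whose mean at E16 was at most 1.75 CPM. The corresponding number for E16 was 5, all called, with a mean at E8 of at most 1.49 CPM. Such genes could pass the count filter only through every library of the other stage. Their calls were thus close to fixed in advance and are a description.

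Of 6133 genes eligible for naming (called, mean log2 CPM of at least 3, stages without overlap; 40.2% of those tested), 3139 were higher and 2994 lower at E16. The 10 largest rises among them spanned log2 fold changes from 6.12 to 9.27 and the 10 largest falls from -8.27 to -4.53. The largest rises and falls are given here by ID.

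The largest rise was that of ENSGALG00000033171. Its level was 1.00, 0.567 and 0.465 CPM in E8 replicates 1, 2 and 3, from 26, 17 and 15 counts. In E16 replicates 1, 2 and 3 it was 253, 594 and 387 CPM, from 5503, 14820 and 7813 counts. Every E16 library thus lay far above every E8 library, and E16 replicate 2 was highest. The mean rose from 0.678 CPM ± 0.29 to 411 CPM ± 172 (SD, n = 3 each), a log2 fold change of 9.27 (SE 0.49, 95% interval 8.08 to 10.46; edgeR adjusted p = 1.3e-05).

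The next largest rise, that of ENSGALG00000040010, was nearly as large and more even among the E16 libraries. Its counts at E8 were 5, 2 and 2, or 0.193, 0.0667 and 0.0620 CPM, close to nothing. At E16 they were 1343, 1401 and 1506, or 61.8, 56.1 and 74.5 CPM. The E16 values lay within a narrow range and far above all E8 values. The mean rose from 0.107 CPM ± 0.074 to 64.1 CPM ± 9.44 (SD, n = 3 each), a log2 fold change of 9.23 (SE 0.27, 95% interval 8.62 to 9.83; edgeR adjusted p = 1.93e-08). With 9 counts in all at E8, the size of this fold is less certain than its direction. The SE and interval come from the F statistic and can be too narrow at such low counts. Over the 17 alternatives the fold ranged from 8.94 to 9.85, and the highest value, without E8 replicate 1, lay above the interval.

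The largest fall was that of ENSGALG00000017347. Its level was 122, 332 and 107 CPM in E8 replicates 1, 2 and 3, from 3165, 9950 and 3436 counts. At E16 it was 0.460, 0.561 and 0.792 CPM, from 10, 14 and 16 counts. The stages were far apart, but E8 replicate 2 was 2.72-fold above the next E8 library. The mean fell from 187 CPM ± 126 to 0.604 CPM ± 0.17 (SD, n = 3 each), a log2 fold change of -8.27 (SE 0.77, 95% interval -10.25 to -6.30; edgeR adjusted p = 5.36e-04). Without E8 replicate 2 it was -7.57, with an edgeR adjusted p of 8.39e-08.

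The next largest fall, that of ENSGALG00000023740, had the same shape. Its level was 29.9, 73.6 and 24.2 CPM at E8 and 0.0460, 0.240 and 0.198 CPM at E16, the latter from 1, 6 and 4 counts. E8 replicate 2 was again highest, 2.46-fold above the next E8 library. The mean fell from 42.6 CPM ± 27.0 to 0.161 CPM ± 0.10 (SD, n = 3 each), a log2 fold change of -7.98 (SE 0.76, 95% interval -9.83 to -6.13; edgeR adjusted p = 2.39e-04). Without E8 replicate 2 it was -7.32, with an edgeR adjusted p of 4.18e-07.

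E8 replicate 2 was high in several of the largest falls. It had the highest E8 value for 7 of the 10 largest falls and lay at least 2-fold above the next E8 library in 4 of them. For the 10 largest rises, it was highest in 2 and at least 2-fold above in 1. A high value in E8 replicate 2 itself enlarges a fitted fall and lessens a fitted rise, so these rankings are not independent of it. The share over all tested genes is not given here. Of the 364 genes at least 2-fold higher in this library than in both other E8 libraries, 58 were called higher at E16, 57 were called lower and 249 were not called. The share called was 31.6%, against 55.2% of all tested genes. Since the genes were chosen for their spread within E8, which enters the test, these counts are a description. Leaving this library out gave 8746 called genes, of which 7906 were among the 8428. Among the genes that were not called, 16 had a fitted change of at least 8-fold, 15 of them falls, and in those 15 E8 replicate 2 was at least 2-fold above both other E8 libraries. A change of that size goes uncalled mainly where spread is large or counts are low, so their spread is partly set by the choice.

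**Figure D4:**
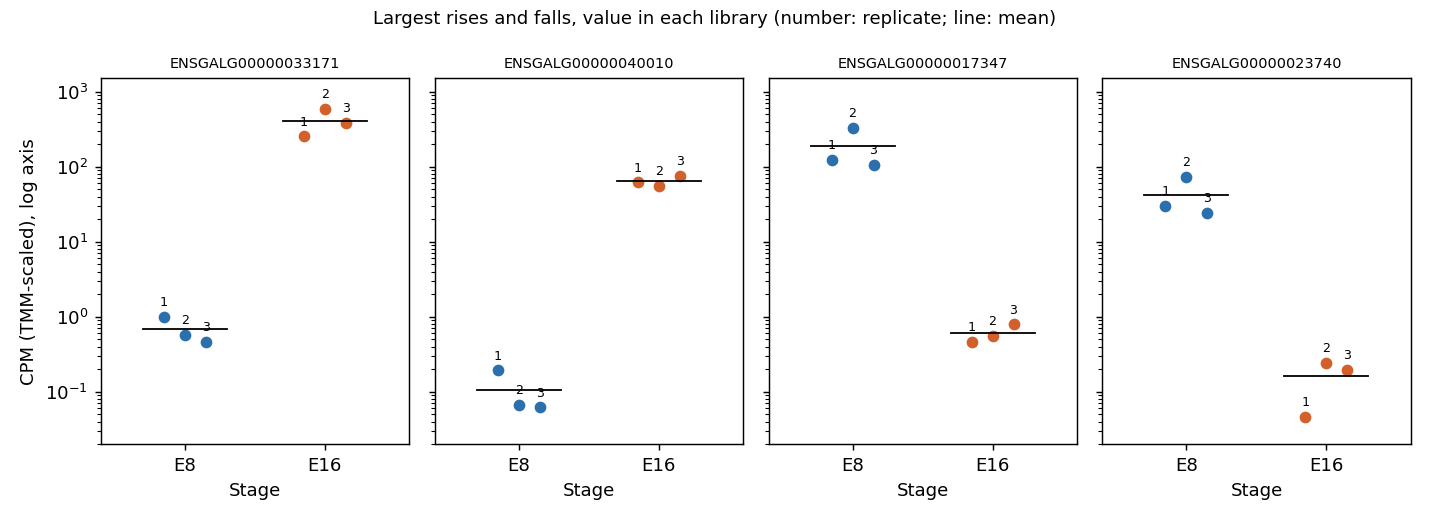
CPM on a log axis in each E8 and E16 library for the genes with the largest rises (ENSGALG00000033171 and ENSGALG00000040010) and the largest falls (ENSGALG00000017347 and ENSGALG00000023740), with replicate numbers at the points and lines at the means. In both falls E8 replicate 2 is the highest E8 point, at 332 CPM and 73.6 CPM.

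The E12 libraries, which had no part in choosing the called genes, were set beside the other stages as a description. For ENSGALG00000033171 the E12 level was 30.4, 58.9 and 40.6 CPM in replicates 1, 2 and 3, and for ENSGALG00000040010 it was 3.15, 3.42 and 1.75 CPM. For ENSGALG00000017347 it was 7.94, 13.4 and 15.5 CPM, and for ENSGALG00000023740 it was 1.68, 3.30 and 3.02 CPM. In each of these 4 genes all E12 values lay between those of E8 and E16. The genes were chosen for the largest changes, so a very wide range of levels lies between their stages.

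Over the 2071 genes called at least 2-fold higher at E16, the E12 mean lay between the E8 and E16 means for 1444 (69.7%), beyond the E8 mean for 358 and beyond the E16 mean for 269. Over the 1462 genes called at least 2-fold lower, it lay between them for 992 (67.9%), beyond the E8 mean for 215 and beyond the E16 mean for 255. Both sets were chosen for a difference of at least 2-fold, which widens the interval. The share over all tested genes is not given here. On the log2 scale with E8 at 0 and E16 at 1, the median E12 position was 0.49 for the genes called higher (quartiles 0.13 and 0.78) and 0.50 for those called lower (quartiles 0.18 and 0.86). With total counts only, these medians were 0.39 and 0.59. Reads that fell outside the annotation were 16.6%, 11.03% and 13.4% of the total in E12 replicates 1, 2 and 3, less than in every E8 and E16 library (18.3% or more). At E12, this library property and the stage cannot be told apart.

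**Figure D5:**
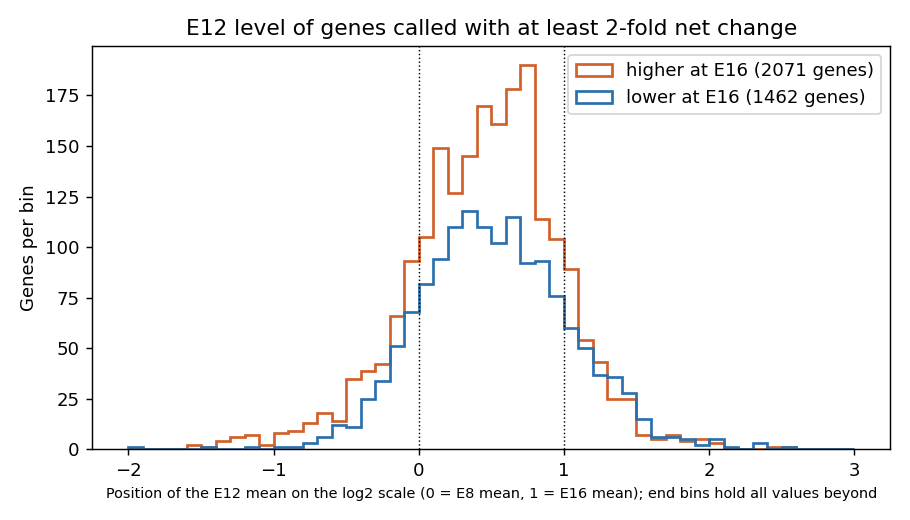
Position of the E12 mean relative to the E8 mean (0) and the E16 mean (1) on the log2 scale, for genes called with at least a 2-fold net change, as genes per bin of 0.1. Both distributions are broad and centred midway, with medians of 0.49 and 0.50, and extend beyond both ends.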

How the data were processed

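The deposited table holds unnormalized read counts for each Ensembl gene ID in 9 libraries, with 5 further rows for reads assigned to no gene, which were kept out of library sizes and tests. Per the submitters' processing notes, FastQC 0.11.9, cutadapt 3.1, Trim Galore, HISAT2 2.2.1, HTSeq 0.13.5 and DESeq2 were used with genome build GRCg6a. The annotation release and strand setting are not given in the sources used here, so overlapping, antisense and near-identical genes are uncertain. Reads were paired and 150 bases long, per the labels' protocols.

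The 3 E8 and 3 E16 libraries, grouped by title, were filtered with filterByExpr, which left out 9093 genes, and scaled with TMM factors. They were compared with edgeR 4.0.16 (R 4.3.3; robust quasi-likelihood F-test), with Benjamini-Hochberg adjustment over all tested genes. Standard errors were derived from the fold change and its F statistic. They and the intervals are thus approximate and can be too narrow for large changes with few counts at 1 stage. CPM values use TMM-scaled library sizes, and E12 values those of a fit to all 9 libraries. Correlations used log2(CPM + 1) and E12 positions log2(CPM + 0.5). Library measures were compared by an exact permutation test over 20 arrangements. The fitting code was run on simulated counts with few changed genes, a common dispersion and no outlying library. These settings differ from the data, so that run checks the code and not the fit to these data. Counts without molecular identifiers carry amplification error that counting error does not cover.

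Named genes were the 2 largest rises and 2 largest falls among those eligible. The comparison, the rule and the alternatives were chosen with earlier results of these data known. Measures of concentration, size classes, E12 positions and genes high in 1 library were added after the data were seen.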

Additional observations from a re-analysis of the deposited data

Results flagged for a closer look

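Part of every library lay outside the gene comparison. The largest such part, reads that fell outside the annotation, averaged 19.7% over the 6 libraries. A further 7.01% did not align. Low mapping quality accounted for 5.03%, more than 1 overlapping gene for 2.196%, and more than 1 alignment for 2.00%.

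In the E12 libraries, 1097 of the 3533 genes called with at least a 2-fold net change had a mean outside the interval between the E8 and E16 means.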

How the results depend on the processing

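The number of called genes stayed within 1.5 times 8428 under all 17 alternatives, from 6239 at an adjusted p under 0.01 to 9093 with total counts only. In some alternatives the called genes were a minority of those tested. Examples are 6239 of 15263 at an adjusted p under 0.01, 8602 of 21462 without a filter on low counts and 7164 of 15578 without E16 replicate 1. DESeq2 1.42.0 called 8414 genes, 8193 of them also called by edgeR, and limma-voom (limma 3.58.1) called 8446, of which 8301 were shared. The fit to all 9 libraries called 7634, of which 7378 were shared, with 46.5% higher at E16. Of the 9093 genes called with total counts only, 7076 were shared. In every alternative, the shared genes had the same direction as in edgeR with TMM. All alternatives drew on the same counts, so a like direction among shared genes was close to fixed in advance. With total counts only, 2247 genes were called at least 2-fold lower. Without a filter on low counts, 276 were called at least 8-fold lower. Requiring 5 CPM in 3 libraries left 11747 genes to test and gave 2223 genes with at least a 2-fold change, 1349 higher and 874 lower, and 223 higher and 59 lower with at least an 8-fold change. Fewer genes of low count were then tested.

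With each library left out in turn, called genes ranged from 7164 to 8746, those with at least a 2-fold change from 3391 to 3956, and genes low at E16 and well counted at E8 from 3 to 9, the highest without E16 replicate 2. The 4 named genes kept their direction and their call in every alternative that tested them. Removal of 506 genes at least 2-fold higher in 1 library, chosen after the data were seen, took out both named falls and left 8257 called genes. With the replicate number as a block, 7975 genes were called. Deviations of same-numbered E8 and E16 libraries from their stage means correlated across genes at -0.06, -0.02 and -0.04. Differently numbered pairs are not given here, so whether the numbers pair the samples was not tested. A fit without haemoglobin and mitochondrial genes had been planned but needs gene names and was not run.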

Other observations

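The 364 genes at least 2-fold higher in E8 replicate 2 than in both other E8 libraries were summed in every library. CPM values of the fit to all 9 libraries were used for these sums. The 364 genes held 2014 CPM in E8 replicate 1, 6835 CPM in replicate 2 and 1845 CPM in replicate 3. At E12 they held 3085, 3552 and 2934 CPM, and at E16 5617, 5931 and 5079 CPM. The genes were chosen by the E8 values among tested genes, and E16 counts helped to decide which genes were tested. The E12 counts took no part in the choice, but genes chosen through E8 and E16 can also lie higher or lower at E12. All these sums are thus a description, and a sum is set by its most counted genes.

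The genes with the largest falls, ENSGALG00000017347 and ENSGALG00000023740, kept a similar ratio of counts across libraries. It was 4.07, 4.51 and 4.40 in E8 replicates 1, 2 and 3 and 4.74, 4.07 and 5.14 in E12 replicates 1, 2 and 3. At E16 the second gene had 1, 6 and 4 counts, too few for a ratio. The pair was noticed after the values were seen and the ratio was not tested.

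The typical spread between libraries was somewhat larger at E16 than at E8, a difference that was not tested. This spread includes counting error, and gene counts per library averaged 27.01 M at E8 and 24.26 M at E16, with overlapping values. The median SD of log2(CPM + 1) over tested genes was 0.129 at E8 and 0.159 at E16, and it was larger at E8 for 6492 genes (42.5%).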
